A study of Mus musculus with 12 samples.

Results

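Holoprosencephaly is a failure of the embryonic forebrain to divide at the midline. The 9 mouse genes described here, Zic2, Six3, Hesx1, Sox1, Cdon, Boc, Gas1, Tgif1 and Disp1, are known for forebrain division or mark the early anterior neural plate. They were taken by name, not by their values, from a deposited table of 55291 genes, and all 9 were found there. Transcript levels had been measured by RNA sequencing in 12 whole C57BL/6J embryos at embryonic day 7.0, wild type and untreated, 5 female and 7 male, from 7 litters. The series compares the sexes at the stage of gastrulation. Each library was 1 embryo, both sexes were sampled together in litters 3, 6 and 9, and the remaining litters each gave a single embryo.

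Sonic hedgehog, a secreted signal from midline tissue below the neural plate, divides the forebrain and the eye field. Disp1 releases the lipid-bearing ligand from the cells that make it, and Cdon, Boc and Gas1 are surface co-receptors that help Ptch1 capture it. Zic2, Six3, Hesx1 and Sox1 are transcription factors, with Sox1 marking the onset of neural fate and the others active in the anterior neural plate, while Tgif1 is a homeodomain repressor that limits Nodal and retinoic acid responses.

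In units of 1000000 fragments, the libraries held between 83.2 and 114.4 with a median of 94.8, estimated from the value that a single fragment took in each library. A normalized count, the unit used below, is a fragment count divided by the authors' size factor, so that 1 fragment was worth between 0.83 and 1.13 normalized counts. Spearman correlations between embryos over genes ran from 0.938 to 0.948. All 10 epiblast markers and all 10 streak and nascent mesoderm markers were measured above the filter on low values, and their summed levels were between 396199 and 598106 and between 45337 and 102183 normalized counts. Visceral endoderm markers were also abundant, with summed levels between 363358 and 507666 in females and between 198479 and 425978 in males, so the whole embryos carried extraembryonic tissue. Female replicate 5 and male replicate 4 stood apart in parietal endoderm markers, with summed levels of 169157 and 145964 normalized counts. In such bulk samples, fewer cells of a type and less RNA per cell cannot be told apart.

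Per kilobase of exon, the genes spanned more than 3 orders of magnitude. Tgif1 stood first with 3849 ± 354 normalized counts per kilobase (SD, n = 12), and it was above every other gene of the set in all 12 embryos. Hesx1 followed with 740 ± 263 and Gas1 with 652 ± 219 (SD, n = 12), and this pair did not differ beyond the spread, since Hesx1 was the higher one in 7 of 12 embryos. Disp1 came next with 256 ± 86.1 (SD, n = 12) and was above Boc in all 12. Boc at 63.1 ± 29.9 and Zic2 at 52.2 ± 16.2 (SD, n = 12) also overlapped, with Boc the higher in 8 embryos. Cdon reached 26.6 ± 10.2 and Six3 13.4 ± 5.8 normalized counts per kilobase (SD, n = 12), while Sox1 averaged 0.55. The co-receptors therefore did not share a level: the mean of Gas1 was above that of Boc, and that of Boc above that of Cdon, on this per-kilobase scale.

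**Figure D1:**
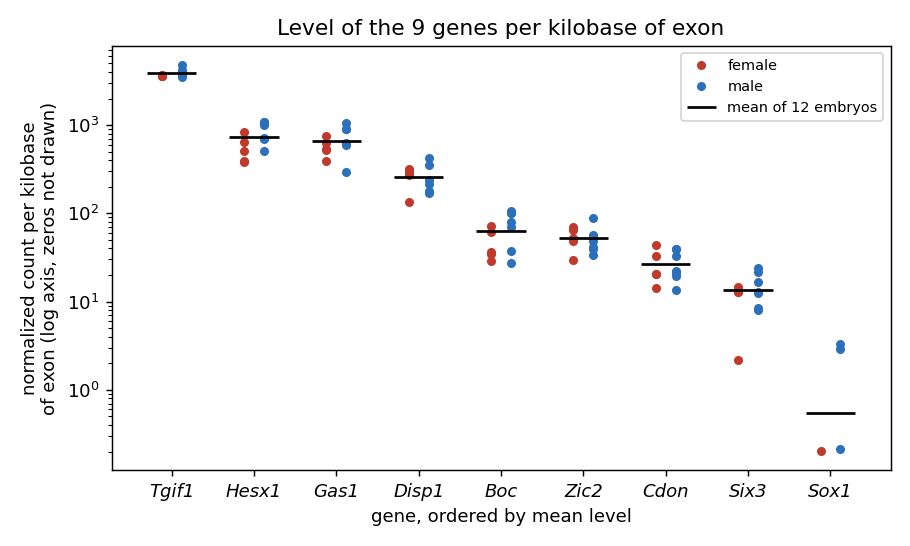
Normalized count per kilobase of exon (y axis, log scale) for the 9 genes in order of their mean; each point is 1 embryo (red, 5 female; blue, 7 male) and each line the mean of 12. Tgif1 stands above the others in every embryo, the ranges of most other neighbours overlap, Hesx1 with Gas1 and Boc with Zic2 the most, and 8 values of Sox1 are 0 and not drawn.

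Among the co-receptors, Gas1 was the most abundant. Gas1, a membrane-anchored growth-arrest protein, is encoded by 1 exon on the minus strand at chr13:60174405-60177365 (GRCm38). Its normalized counts in female replicates 1 to 5 were 1172, 1545, 1863, 2211 and 1567, and the 7 males ran from 879 through a median of 1859 to 3129. The lowest embryo was male replicate 1 and the highest male replicate 4, so the male range enclosed the female one. A noncoding gene on the opposite strand, Gm48488, overlaps Gas1 and averaged 11.3 normalized counts, and the sources used here do not say that strand was used in counting.

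Boc, an immunoglobulin-family co-receptor with a coding gene of 19 exons on the minus strand at chr16:44485049-44558897, was more variable. Its normalized counts in the 5 females were 162, 317, 155, 276 and 129, against 121, 358 and 479 as the lowest, median and highest of the 7 males. Of the females, replicates 2 and 4 stood above the others, and the male range again enclosed the female one. Cdon, the paralogue of Boc on chr9:35421128-35507652 (plus strand, 20 exons in its longest transcript), had 159.3, 334.6, 251.4, 160.3 and 110.0 normalized counts in the females, and the males ran from 105 through 173 to 302. The highest of the 12 Cdon values was female replicate 2, and the sexes overlapped almost fully.

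Disp1, the ligand-release transporter, lies on the minus strand of chr1:183086266-183221522. It had 695, 1442, 1680, 1429 and 1594 normalized counts in female replicates 1 to 5, and the males had 894 at the lowest, 1131 at the median and 2209 at the highest. Female replicate 1 lay well below the other females and below all males, while male replicates 1 and 4 were the highest embryos.

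Hesx1, a homeodomain repressor that marks the anterior visceral endoderm and then the anterior neural plate, lies on the plus strand of chr14:26994416-27002329. Normalized counts in the females were 810, 1041, 476.5, 490.4 and 639, and the males ran from 628 through a median of 1249 to 1358. No female reached the male median, 4 of 7 males were above every female, and 2 females were below every male. The overlap of the sexes was made up of female replicates 1, 2 and 5 and male replicates 1, 3 and 4.

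The start regions of Hesx1 and Disp1 are shown because these genes had the relations to marker levels, given further on, with an adjusted p below 0.05, and they were chosen after those values were seen. RefSeq start regions, from 250 bases before to 50 bases after a start site on GRCm38.p6, were at hand for 7 of the 9 genes. Hesx1 lies at chr14:27000112-27000411 on the plus strand, inside the longer GENCODE gene, and Disp1 at chr1:183221480-183221779 on the minus strand, the upstream one of its start regions. Capitals mark matches to any of 6 motifs searched on both strands.
Hesx1: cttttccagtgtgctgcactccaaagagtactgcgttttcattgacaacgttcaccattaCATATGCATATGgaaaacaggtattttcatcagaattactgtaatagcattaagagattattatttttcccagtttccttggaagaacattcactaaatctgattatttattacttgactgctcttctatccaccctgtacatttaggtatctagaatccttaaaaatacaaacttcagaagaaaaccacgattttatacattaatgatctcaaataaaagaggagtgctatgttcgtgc
Disp1: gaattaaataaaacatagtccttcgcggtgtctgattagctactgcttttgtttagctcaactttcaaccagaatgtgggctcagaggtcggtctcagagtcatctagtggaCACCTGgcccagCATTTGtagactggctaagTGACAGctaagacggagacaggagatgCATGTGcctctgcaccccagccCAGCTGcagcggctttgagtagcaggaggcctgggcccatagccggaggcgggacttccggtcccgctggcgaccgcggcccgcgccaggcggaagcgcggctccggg
The motifs were TAATTA (homeodomain), ACAAAG and ACAATG (SOX), CANNTG (the E-box), TGACAG (TGIF) and TGGGTGGTC (GLI). The Hesx1 region was 33.7% G and C with 4 CpG dinucleotides, and the Disp1 region 58.7% with 18, beside medians of 52.7% and 7 over 32851 RefSeq start regions. Hesx1 held 2 adjoining CANNTG matches, and Disp1 held 4 of them and 1 TGACAG. Of all start regions, 72.3% held CANNTG, 19.2% TGACAG, 18.7% ACAAAG, 12.6% ACAATG, 5.29% TAATTA and 0.253% TGGGTGGTC, so these matches are common.

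Zic2, a zinc-finger factor of the neural plate, lies on the plus strand of chr14:122475435-122479852 and held 139, 200, 85.8, 150 and 187 normalized counts in the females. The 7 males had 98.0 at the lowest, 141 at the median and 253 at the highest, the last in replicate 6. Its divergent neighbour Zic5 averaged 4189 normalized counts, also highest in male replicate 6.

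Six3, a homeodomain factor of the rostral forebrain and eye field (chr17:85613608-85629302, plus strand), was at 11.9 normalized counts in female replicate 1 and at 78.0, 69.7, 80.6 and 70.3 in the other females. The males ran from 43.6 through 69.9 to 130. A single female therefore lay below every other embryo, and the other 11 lay between 43.6 and 130. The antisense gene Six3os1 overlaps Six3 and had between 20.7 and 142.9 normalized counts per embryo, highest in male replicate 7 like Six3 itself; without strand, reads of the overlap cannot be told apart.

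Sox1, the SoxB1 factor of early neural progenitors, is encoded by 1 exon at chr8:12395295-12400126 and was at the edge of detection. It had 14.0 normalized counts in male replicate 2 and 15.9 in male replicate 6, 0.98 in female replicate 1 and 1.02 in male replicate 5, and 0 in the other 8 embryos. A count of 0 allows up to 3 fragments, worth between 2.49 and 3.39 normalized counts in these libraries, and covers counting error only. Sox1 did not pass the filter on low values, at least 10 normalized counts in at least 5 embryos, and no fold change is given.

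Tgif1, on the minus strand of chr17:70844205-70853546 with 12 annotated transcripts, was the steadiest of the set. The females had 20571, 20866, 20449, 20461 and 20390 normalized counts, and the males ran from 19688 through a median of 22261 to 26804. The females thus lay within a narrow band, and 6 of 7 males stood above all of them by margins that were small for male replicates 4 and 7.

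**Figure D2:**
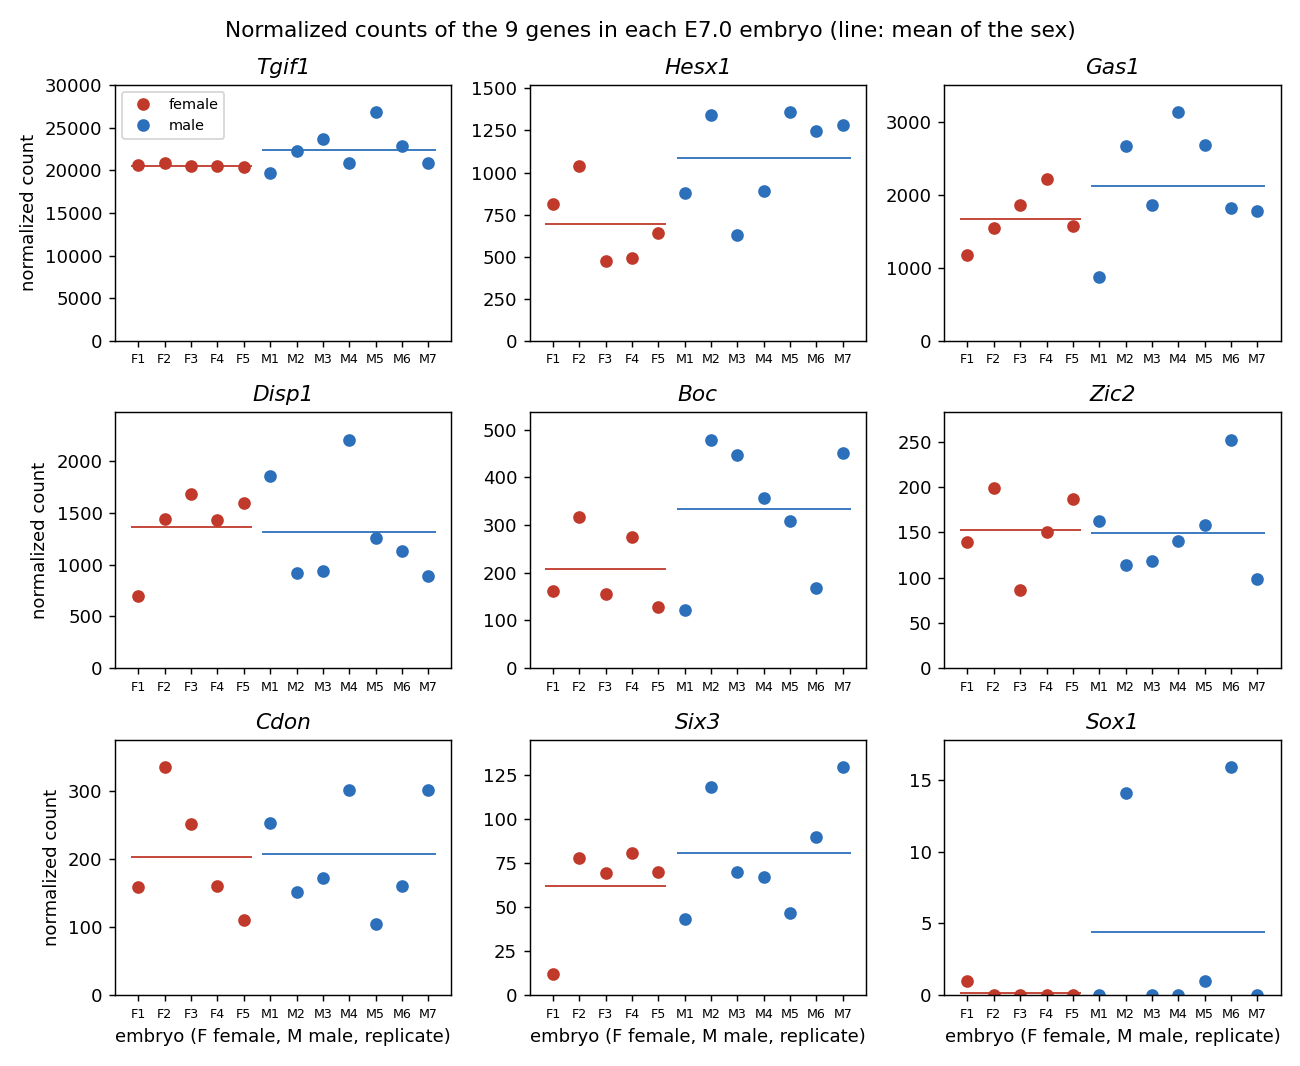
Normalized count (y axis, linear from 0) of each of the 9 genes in female replicates 1 to 5 (F, red) and male replicates 1 to 7 (M, blue); lines are the means of each sex. Hesx1 has 4 males above all females, Six3 has female replicate 1 alone at 11.9, and Sox1 exceeds 10 only in male replicates 2 and 6.

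The spread across embryos separated Tgif1 from the rest. After subtracting each sex's mean, the SD of log2(normalized count + 1) was 0.11 for Tgif1, and 12.5% of the 16455 genes tested had a smaller one. The SD was 0.45 for Hesx1, 0.46 for Zic2, 0.52 for both Gas1 and Disp1, 0.59 for Cdon, 0.70 for Boc and 0.86 for Six3. These lay above the median of 0.31 over all genes tested, and 77.7% of genes had a smaller SD than Six3. From the lowest to the highest embryo, Tgif1 changed 1.36-fold, Six3 10.9-fold, and the other 6 tested genes between 2.85-fold and 3.95-fold. The values of Six3 rested on female replicate 1: without it the SD was 0.50, below those of Boc and Cdon, and the range 2.97-fold. Without male replicate 5, the SD of Tgif1 was 0.07. Counting noise is larger for low genes such as Six3, and this was not separated from differences between embryos.

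No gene of the set differed between the sexes past the threshold. With limma on log2(normalized count + 1) and Benjamini-Hochberg adjustment over all genes tested, 0 of the 8 tested genes had an adjusted p below 0.05, against a background of 0.0425% of genes (7 of 16455). At an unadjusted p below 0.05, 1 of the 8 passed, Hesx1, where 10.8% of all genes did. The authors' deposited table likewise calls none of the 9, where it calls 1.14% of the 18821 genes with an adjusted p.

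Hesx1 came nearest. The 5 females averaged 691 ± 238 normalized counts and the 7 males 1089 ± 287 (SD), a log2 fold change of -0.67 for female over male (SE 0.24, 95% interval -1.18 to -0.16, adjusted p = 0.347 by limma). Visceral endoderm markers differed between these embryos too, as given below, and their part in the Hesx1 values was not tested. In the authors' deposited table, Hesx1 has a log2 fold change of -0.12 with an SE of 0.17. The deposited p-value is 0.00681 and the adjusted p 0.183, so Hesx1 does not pass the threshold there either. That fold change is smaller in size than its SE, which by itself would not give so small a p-value. The size of the deposited fold change is therefore not compared with the -0.67 from limma, and the reason was not tested. For Boc, means of 208 ± 83.2 (SD, n = 5) and 333 ± 142 (SD, n = 7) gave -0.62 (95% interval -1.42 to 0.19, adjusted p = 0.59 by limma).

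The other intervals also included 0. Six3 had a log2 fold change of -0.52 (95% interval -1.59 to 0.56), which rested on female replicate 1 and was -0.01 without it. With litter as a block it was the -1.23 given below, a fit that also includes female replicate 1. The litter mates of this embryo had 118 and 69.9 normalized counts of Six3. The block was not refitted without this embryo. Gas1 was at -0.27 (-0.83 to 0.29) and Tgif1 at -0.12 (-0.26 to 0.02), the narrowest interval of the 8. Cdon at -0.04 (-0.77 to 0.69), Zic2 at 0.04 (-0.61 to 0.68) and Disp1 at 0.08 (-0.49 to 0.65) had estimates near 0 whose sign changed when single embryos were left out. Adjusted p-values of these 6 genes lay between 0.523 and 0.988 by limma. Intervals of this width leave room for differences of 1.5-fold in either direction for Cdon and Zic2, so the sexes are not shown to be alike.

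**Figure D3:**
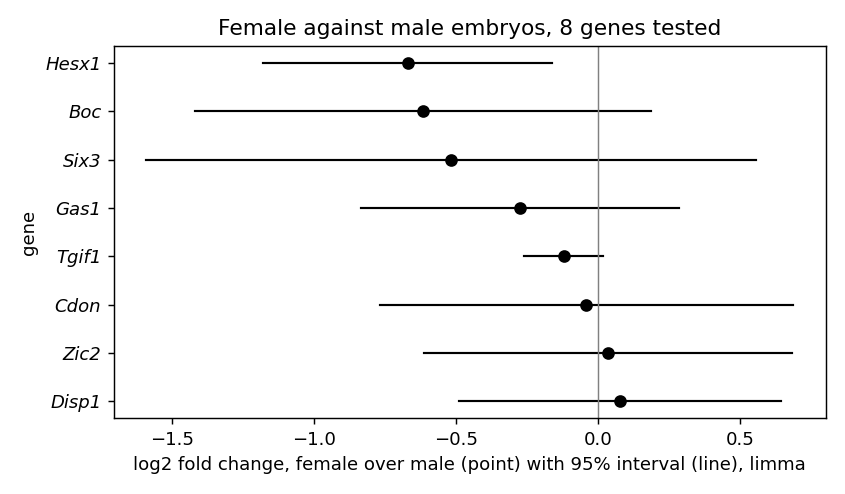
Log2 fold change, female over male (x axis; point, limma estimate; line, 95% interval), for the 8 genes that passed the filter. The interval of Hesx1, -1.18 to -0.16, is the only one that does not include 0, before adjustment over 16455 genes.

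Estimates were negative for 6 of the 8 genes, with a median of -0.20, beside 50.22% negative and a median near 0 over all genes tested. Litter mates gave 5 female-male pairs in litters 3, 6 and 9, in which some embryos enter more than once. The female was the lower one in 5 of 5 pairs for Boc and Tgif1 and in 4 of 5 for Hesx1, Six3 and Gas1. She was the lower one in 3 for Sox1, and in 2 for Zic2, Cdon and Disp1. Male replicates 2, 5 and 7 of these pairs had low anterior visceral endoderm and anterior mesendoderm markers, as given below. The part of this in the Boc values was not tested. With litter as a block in limma, which takes the sex difference from these 3 litters, the log2 fold changes were -1.24 for Boc, -1.23 for Six3, -0.87 for Hesx1 and -0.17 for Tgif1, with adjusted p-values of 0.356, 0.512, 0.39 and 0.447.

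The related genes of these pathways did not pass the threshold either; over all genes tested, 0.0425% were called, 10.8% had an unadjusted p below 0.05 and 50.22% had a negative estimate. Of 22 other holoprosencephaly genes, 0 were called and 3 had an unadjusted p below 0.05, with 9 estimates above and 13 below 0 and a median log2 fold change of -0.02. The most abundant, Tdgf1, the Nodal co-receptor, had a mean of 70500 ± 1983 normalized counts over 5 females and 48322 ± 21732 over 7 males (SD; log2 fold change 0.69, adjusted p = 0.392 by limma). Among 20 anterior and early neural genes, 14 were tested, 0 were called, 4 had an unadjusted p below 0.05, and 12 of the 14 estimates were negative (median -0.34). Otx2, the head-organizing homeodomain factor, was 1 of the 2 with an estimate above 0, at 0.39 (adjusted p = 0.43 by limma).

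Among 21 genes of Hedgehog release, reception and response, 19 were tested, 0 were called and 1 had an unadjusted p below 0.05, beside the 10.8% of all genes, with a median log2 fold change of 0.11. Smo, the signal transducer, averaged 10979 ± 1844 normalized counts and Sufu, the inhibitor of Gli factors, 6269 ± 697 (SD, n = 12), with log2 fold changes of -0.14 and 0.14. Smo was thus at 9099 normalized counts or more in every embryo, and Sufu at 4790 or more. They had the highest means of this list, so they do not speak for its other genes, which lay lower. For the 13 partners of Tgif1 and genes of the Nodal branch, 0 were called, 4 had an unadjusted p below 0.05 and the median was 0.03. Hdac1, a deacetylase in TGIF repressor complexes, averaged 40916 normalized counts, and Lefty2, a Nodal antagonist, was at -0.27 (adjusted p = 0.43 by limma). In the 15 genes of the anterior visceral endoderm and anterior mesendoderm, 0 were called, 5 had an unadjusted p below 0.05, again beside 10.8% of all genes, and the median was 0.04; Cer1, a secreted Nodal and Wnt inhibitor, was at -0.35 and Lhx1, a head-organizer factor, at 0.59.

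Over the 12 embryos, the genes were not shown to rise and fall together, and so few embryos cannot show that they vary independently. Among all 28 pairs of the 8 tested genes, 0 Pearson correlations passed the Benjamini-Hochberg threshold, and 1 had an unadjusted permutation p below 0.05. That pair was the co-receptors Boc and Gas1, with a Pearson r of 0.65 (permutation p = 0.0214, adjusted p = 0.599) and a Spearman rho of 0.50 (permutation p = 0.0982, adjusted p = 0.516). Without the 2 embryos farthest from the median of Boc, r was 0.48. It was 0.69 in the 7 males alone (exact permutation p = 0.0857) and 0.78 within litters 3, 6 and 9 after subtracting each litter's mean. By Spearman correlation, 0 pairs passed the threshold, and the lowest p belonged to another pair, Boc and Tgif1. Their rho was 0.70 (permutation p = 0.0148, adjusted p = 0.414) and their Pearson r 0.41 (permutation p = 0.185), so the leading pair depended on the measure.

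Cdon, the third co-receptor, had an r of 0.18 with Boc and -0.16 with Gas1, and the difference from the 0.65 of Boc and Gas1 was not tested. Its largest correlation was a negative one with Tgif1, at r = -0.52 (permutation p = 0.0773, adjusted p = 0.635; Spearman rho -0.17). In males alone this was -0.89 (exact permutation p = 0.00774, adjusted p = 0.217), and leaving out single embryos moved it from -0.70 to -0.26. Six3 and Boc had an r of 0.48 (permutation p = 0.097, adjusted p = 0.635). Among the transcription factors, Hesx1 had an r of 0.17 with Six3 and 0.26 with Zic2, and Zic2 with Six3 had -0.10.

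**Figure D4:**
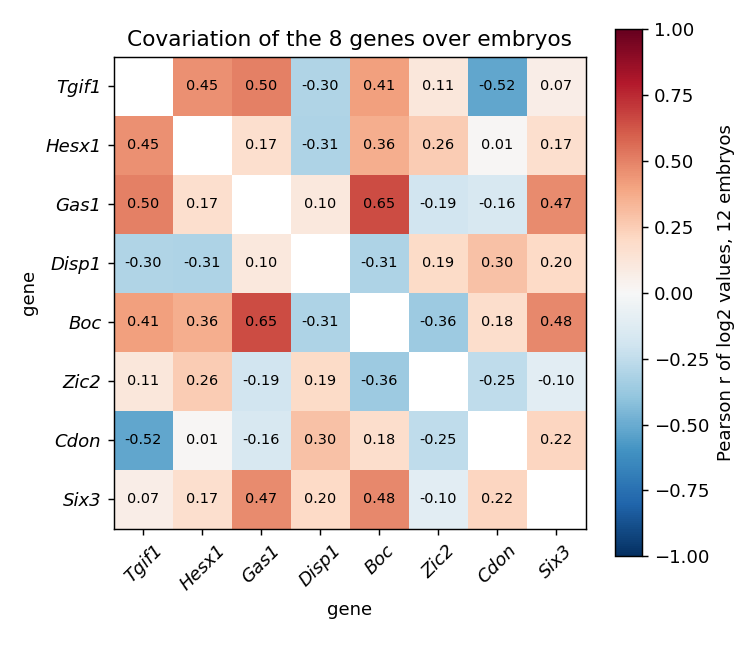
Pearson r of log2(normalized count + 1) over 12 embryos for each pair of the 8 genes (colour scale from -1 to 1, values printed). Boc with Gas1, at 0.65, is the highest and Cdon with Tgif1, at -0.52, the lowest; none passed the adjusted threshold.

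Because whole embryos carry several tissues, each of the 8 genes was set against the mean log2 level of 10 marker lists, 80 relations in all. Of these, 9 had an unadjusted permutation p below 0.05 and 2 an adjusted p below 0.05. Hesx1 fell as visceral endoderm markers rose, with r = -0.84 (permutation p = 7e-04, adjusted p = 0.028) and rho = -0.82 (permutation p = 0.00168, adjusted p = 0.0446). All 10 visceral endoderm markers had a negative r with Hesx1, from -0.88 for Apob to -0.74 for Ttr. The visceral endoderm level was lowest in male replicates 2, 6 and 5, at -0.75, -0.60 and -0.52 relative to the 12 embryos, and these had 1339, 1249 and 1358 normalized counts of Hesx1. Without those 3 embryos r was -0.75 (n = 9), and without the 2 farthest from the median of the marker level it was -0.81. The adjusted p did not stay below 0.05 throughout: it was 0.312 after subtracting each sex's mean (r = -0.73) and between 0.0248 and 0.179 when single embryos were left out. It was above 0.05 without female replicates 1, 3 or 5 or male replicates 2, 4 or 5. Within litters 3, 6 and 9, after subtracting each litter's mean from their 8 embryos, r was -0.95 with an adjusted permutation p of 0.0832. That permutation moved values across litters, although values centred within a litter are not independent, so this p may be too small.

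Tgif1 also had lower values where visceral endoderm markers were high, at rho = -0.86 (permutation p = 0.00063, adjusted p = 0.0446), but its Pearson r of -0.66 did not pass the adjustment (permutation p = 0.0172, adjusted p = 0.276). That r was -0.32 without the 3 embryos of the lowest visceral endoderm level, -0.51 after subtracting each sex's mean and -0.59 within litters 3, 6 and 9. The part of tissue composition in these relations was not tested.

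The other relation with an adjusted p below 0.05 set Disp1 against markers of later neural cells, Tubb3, Neurod1, Elavl3 and Dcx. Here the embryos fell into separate clusters, so no pooled r with the list's level is given. Neurod1 was at 0 in female replicates 2 to 5 and male replicates 1 and 4, and between 17.2 and 78.2 normalized counts in the other 6 embryos. Disp1 was between 1429 and 2209 normalized counts in the embryos without Neurod1. It was between 695 and 1254 in those with Neurod1, a description with no test. Of the markers, only Neurod1 set these groups apart, while Tubb3, Elavl3 and Dcx overlapped between them. The markers differed: over 12 embryos, r with Disp1 was -0.79 for Neurod1, which rests on the same clusters, and -0.75 for Dcx. It was only -0.43 for Elavl3 and -0.40 for Tubb3, given as a description. In the cluster without Neurod1, r of Disp1 with the list's level was -0.64 (n = 6, exact permutation p = 0.222), but rho was only -0.20. In the cluster with Neurod1, r was -0.22 (n = 6, exact permutation p = 0.722) and rho -0.26. The 4 embryos with any Sox1 fragment were all among the 6 with Neurod1. In female replicate 1 and male replicate 5 this was about 1 fragment, under the limit that a count of 0 allows.

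Boc against anterior visceral endoderm and anterior mesendoderm markers also gave clusters. Male replicates 2, 4, 5 and 7 had marker levels between -1.67 and -0.55, and the other 8 embryos lay between 0.23 and 0.70. Within those 8, r was -0.80 (exact permutation p = 0.0278, not adjusted) and rho was -0.67. The 8 were set apart by these same marker levels, and this p does not allow for that choice. The other 4 embryos were too few for a value. Over all 12 embryos, the relation had an adjusted permutation p of 0.126 by Pearson and 0.0446 by Spearman correlation. The 8 markers did not all follow Boc: over 12 embryos, r was between -0.78 and -0.63 for Sfrp5, Lefty1, Foxa2, Gsc and Hhex, but -0.10 for Cer1, 0.10 for Dkk1 and 0.23 for Chrd, given as a description.

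**Figure D5:**
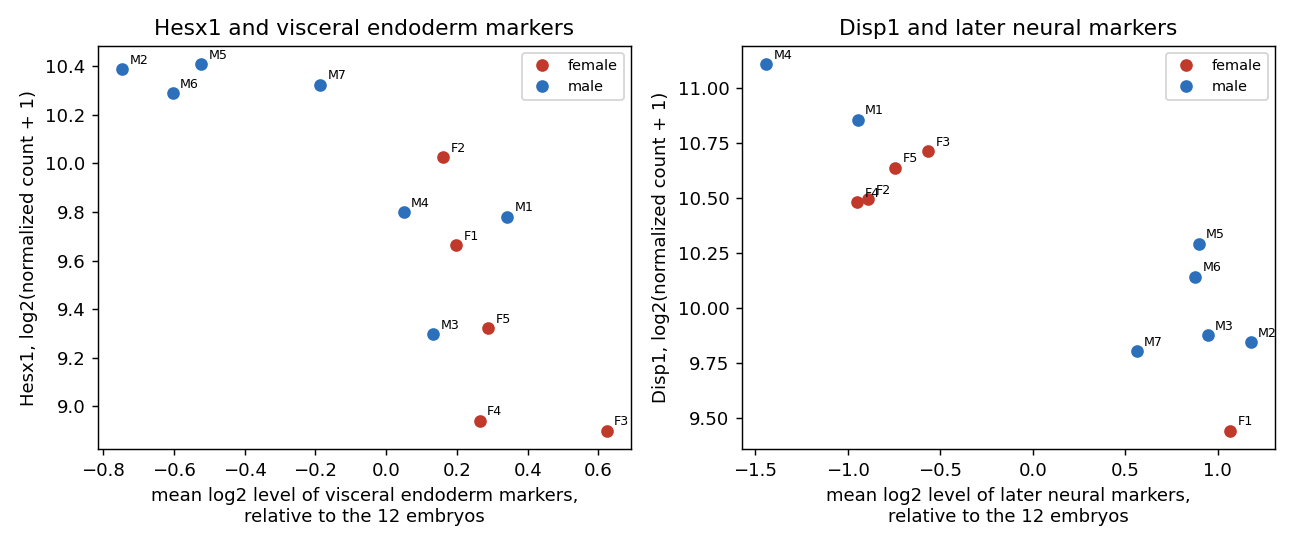
Left, log2(normalized count + 1) of Hesx1 against the mean log2 level of visceral endoderm markers; right, the same for Disp1 against later neural markers (F, female, red; M, male, blue; 1 point per embryo). On the left Hesx1 declines along the axis, with male replicates 2, 5 and 6 at the low end of the markers; on the right the embryos form separate clusters of 6 on either side of 0.

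The genes most like each of the 8 in their pattern over 12 embryos were sought among the 12536 or more genes tested with a mean of at least 100 normalized counts, as a description without a test. Gas1 had the closest match, the Notch ligand Dll3, at r = 0.97. Hesx1 was closest to Ret, a receptor tyrosine kinase, at 0.93, and Boc to Ripply2, a somite-boundary repressor, at 0.91. Six3 was nearest to Cdk19 at 0.92, Cdon to Bex2 at 0.92, Tgif1 to Arhgap11a at 0.92, Disp1 to Cstf1 at 0.86 and Zic2 to Gpr19 at 0.83. Each value is the highest of 12536 or more correlations over 12 embryos, so picking the highest makes r large in any case. No chance level was computed.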

How the data were processed

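Whole embryos were sequenced singly. The authors used Salmon 1.5.2, STAR 2.7.7a, cutadapt 4.1, DESeq2 1.34.0 and the mm10 build, per the submitters' processing notes; settings and the use of strand are not given in the sources used here. The authors deposited log2-scale variance-stabilized values per embryo, a mean signal per gene (mean normalized count), and a log2 fold change with its standard error, p-value and adjusted p-value, per the file headers. The transformation (floor 10.4141) was inverted to normalized counts; the inverted mean matched the deposited signal, to a relative tolerance of 1e-06, in 98.95% of 25451 genes detected. In each library, 83.6% to 85.6% of the low values were within 0.1 of whole fragments, and no count model was used.

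Sexes were compared with limma 3.58.1 (R 4.3.3, mean-variance trend) on log2(normalized count + 1), which understates changes of low genes, in genes with at least 10 normalized counts in at least 5 embryos, two-sided, Benjamini-Hochberg threshold 0.05, intervals at 95%. The fit was tested on simulated data. Correlations used 100000 permutations, or all orders where the p is called exact, two-sided (Python 3.11.15, scipy 1.17.1). A list's level was its markers' mean log2 value relative to the 12 embryos. The 9 genes, the lists and the tests were chosen with earlier results of these data known. Beyond the 9 genes, list members past the threshold or else up to 3 of the highest mean were named, and the most alike gene of each. Values of 1 listed gene are not reported here. Apob, Ttr, Neurod1, the markers set beside Boc and the neighbouring genes were named after their values were seen. Gene positions are GENCODE M21 (GRCm38); levels per kilobase use the union of exons. Amplified fragments are not independent molecules, so floors cover counting error only. Alternatives covered the pseudocount, the filter, scaling, blocks for litter and replicate number, and left-out embryos.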

Additional observations from a re-analysis of the deposited data

Results flagged for a closer look

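In 4 of the 18 gene and sex groups examined, Sox1 in females among them, 1 embryo lay far from the others of its sex. The measure was the gap to its nearest neighbour over the group's range. Chance does this in about 1 of 20 groups of normally distributed values, a shape that was not checked here. Female replicate 1 had the lowest Six3 of all embryos, at 11.9 normalized counts, and the lowest Disp1, at 694.5. It was also the only female with any Sox1, at 0.982 normalized counts, which is about 1 fragment and under the limit that a count of 0 allows; a lone value above 0 always stands apart by this measure, so it says nothing more. Male replicate 6 had the highest Zic2, at 252.6 normalized counts, and was 1 of the 2 embryos with more than 10 normalized counts of Sox1. The part of stage, tissue carried along or library in these values was not tested.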

How the results depend on the processing

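No gene of the set passed the threshold between the sexes, and no pair of them was correlated past it, under any alternative run. Over all genes, 7 calls became 4 with the replicate block and 4 with litter as a block, and 5 to 9 when single embryos were left out. Same-numbered embryos shared no litter and their deviations correlated between -0.068 and 0.009, so the numbers share only a name. Estimates near 0 reversed: Zic2 to -0.094 with litter as a block, -0.055 without both embryos high in parietal endoderm markers (chosen after seeing the data), and between -0.076 and 0.23 without single embryos; Cdon to 0.035 with the replicate block, 0.26 without both embryos, and between -0.25 and 0.15 without single ones; Disp1 to -0.042 with the replicate block and between -0.011 and 0.31 without single ones. The cause was not tested. Hesx1 stayed negative throughout, at -0.56 with the replicate block and -0.87 with litter as a block. It was -0.24 on the deposited log2-scale values, whose scale compresses differences. Its adjusted p-values by limma lay between 0.211 and 0.642 over all alternatives. Boc was at -1.24 with litter as a block and Six3 at -1.23 (adjusted p = 0.356 and 0.512 by limma). The Six3 value includes female replicate 1, without which the main estimate was -0.01. Of the 80 relations to marker lists, 2 passed, against 4 by Spearman correlation, 1 after subtracting each sex's mean, 0 without both parietal-high embryos, 0 within litters 3, 6 and 9, and 0 to 3 without single embryos, 0 being without male replicate 4; these alternatives were chosen after seeing the data. With lengths of the longest transcript, Six3 moved to 19.8 and Tgif1 to 6884 normalized counts per kilobase, and the order of the genes was kept. Depth limits Sox1, whose values rest on at most about 15 fragments per embryo.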
